A study of Mus musculus with 16 samples.

Results

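The regions described here are stretches of chromatin that carried a peak of the histone mark H3K27me3 in the solvent-treated B cells of mutant mice and no peak at the same place in wild-type (WT) cells. H3K27me3 was mapped by ChIP-seq, the sequencing of DNA that an antibody against the mark brings down, in splenic B cells of C57BL/6 mice 6 to 8 weeks old, purified with CD43 microbeads and cultured for 48 hours with BAFF and IL-4, which support B cells in culture. The mice were either WT or triple mutants for Ifih1, Rigi and cGAS, genes that encode cytosolic sensors of foreign RNA and DNA, and the kind of mutation is not given in the sources used here. Cells of each genotype received the solvent DMSO or 1 µM GSK343, an inhibitor of the methyltransferase EZH2, so all groups share the culture and its cytokines. Each of these 4 combinations had 2 ChIP and 2 input samples and 1 deposited list of broad peaks. A mutant DMSO peak was taken as mutant-only when it lay on chromosomes 1 to 19 and shared 0 bases with any WT DMSO peak. This held for 24846 of the 48321 mutant DMSO peaks on these chromosomes, or 51.4%. The remaining 23475 mutant DMSO peaks are called shared below, and the 8057 WT DMSO peaks without a mutant counterpart are called WT-only.

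EZH2 is the catalytic subunit of Polycomb repressive complex 2, which places methyl groups on lysine 27 of histone H3. The trimethylated form marks silent genes, typically at promoters rich in CG dinucleotides (CpG islands) of developmental regulators, and the complex can bind its own product, which allows the mark to extend from such sites into flanking chromatin as broad, weaker domains. In lymphocytes it covers genes of other lineages and of other stages of differentiation. As a check of the cell type, 0 of 10 B cell markers (among them Cd79a, Ms4a1 and Pax5) carried a peak in any of the 4 lists, whereas DMSO peaks of both genotypes lay over 5 of 8 T cell markers and 3 of 6 myeloid markers.

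The lists read as called on pooled duplicates, so no list has a replicate and no difference between lists could be tested against a spread between samples. Peak names in the mutant lists carry a 1 after the treatment initial, so it cannot be told whether these lists rest on both replicates. Read depth is unknown. Shares of peaks are given with 95% Wilson intervals. These reflect counting error among peaks alone, and neighbouring peaks are not independent of each other. The mutant-only peaks were chosen by the overlap of the DMSO lists, and their width, fold and distance to WT peaks come from the same libraries. Those values are therefore given as descriptions without a test.

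Promoter sequences show the range of sites involved. The windows below are the 250 bases before a start site, 5′ to 3′ on the strand of the gene, from RefSeq on GRCm38.p6, with each CG dinucleotide in capitals. Hrh3, the histamine H3 receptor gene, lies in the widest mutant-only peak and has a window dense in CG at chr2:180104408-180104657 on the minus strand. Foxa2, a forkhead regulator of endoderm, is shown as a promoter in a WT DMSO peak, at chr2:148045465-148045714 on the minus strand. A2ml1, a protease inhibitor of the alpha-2-macroglobulin family (chr6:128581607-128581856, minus strand), Oas1a, an RNA-sensing oligoadenylate synthetase (chr5:120907526-120907775, minus strand), and Gcsam, a germinal centre signalling protein (chr16:45610190-45610439, plus strand), are the other named genes whose promoter windows lay in a mutant-only peak.
Hrh3: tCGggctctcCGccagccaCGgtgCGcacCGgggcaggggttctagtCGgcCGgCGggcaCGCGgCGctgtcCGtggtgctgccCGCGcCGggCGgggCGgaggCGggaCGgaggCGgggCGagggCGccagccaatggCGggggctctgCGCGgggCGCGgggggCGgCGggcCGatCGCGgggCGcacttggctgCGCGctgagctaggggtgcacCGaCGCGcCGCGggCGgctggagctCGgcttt
Foxa2: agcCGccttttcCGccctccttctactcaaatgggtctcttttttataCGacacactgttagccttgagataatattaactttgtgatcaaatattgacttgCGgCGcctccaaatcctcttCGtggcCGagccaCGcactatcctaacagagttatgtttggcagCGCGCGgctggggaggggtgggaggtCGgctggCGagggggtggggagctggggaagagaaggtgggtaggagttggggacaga
A2ml1: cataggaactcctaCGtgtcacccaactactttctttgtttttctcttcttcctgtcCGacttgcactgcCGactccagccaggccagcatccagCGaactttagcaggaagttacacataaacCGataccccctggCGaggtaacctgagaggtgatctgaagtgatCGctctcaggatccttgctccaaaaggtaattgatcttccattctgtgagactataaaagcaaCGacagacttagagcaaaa
Oas1a: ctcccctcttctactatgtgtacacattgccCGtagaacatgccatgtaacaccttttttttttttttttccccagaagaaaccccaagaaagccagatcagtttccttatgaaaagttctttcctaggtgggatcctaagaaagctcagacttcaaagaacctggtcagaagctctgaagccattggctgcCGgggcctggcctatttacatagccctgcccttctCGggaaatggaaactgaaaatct
Gcsam: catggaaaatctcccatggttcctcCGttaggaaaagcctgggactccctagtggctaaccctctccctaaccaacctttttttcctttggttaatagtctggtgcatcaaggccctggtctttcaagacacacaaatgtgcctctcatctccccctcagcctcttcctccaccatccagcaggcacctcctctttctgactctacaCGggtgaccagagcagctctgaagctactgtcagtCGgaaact
The Hrh3 window holds 42 CG dinucleotides and 99.3% of the 31396 promoter windows examined hold as many or fewer. The Foxa2 window holds 13. By contrast the A2ml1 window holds 8, and those of Oas1a and Gcsam hold 3 each, at or below which lie 37.3% of all windows.

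Mutant-only peaks were narrow and weak. Their median width was 680.0 bp, with 10% below 254 bp and 10% above 1750.5 bp, against a median of 2778 bp for shared mutant peaks. A width of 1 kb or more was reached by 28.6% of them and by 81.5% of shared peaks. They made up 51.4% of the list by number and held 16.5% of its bases, or 21.9 of 132 Mb. Only 64 were 5 kb wide or wider, against 6742 shared peaks. WT-only peaks were narrower still, with a median of 464 bp.

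The fold of ChIP over background, which is the authors' own value, had a median of 2.25 in mutant-only peaks and 2.49 in shared ones. It reached 3 in 31 mutant-only and 5152 shared peaks. Ranked by p-value and split into 10 equal bins, the mutant DMSO list held 87.0% mutant-only peaks in its weakest bin and 0.414% (20 of 4832) in its strongest. The share fell from each bin to the next. The WT list hardly reaches the folds at which most of these peaks lie: 0.907% of WT DMSO peaks had a fold of 2.25 or less, against 32.0% of mutant DMSO peaks, and the lowest 5% of folds ended at 2.27 in the WT and 2.12 in the mutant list. At an equal fold of 2.9 to 3.1 the median −log10 p-value was 5.46 in the WT and 6.12 in the mutant DMSO list. With the 39233 top peaks of each DMSO list, the number of mutant-only peaks was 17208. The part of this difference between the lists in the number of mutant-only peaks was not tested further. Of the 24846 mutant-only peaks 1921 had a fold of at least 2.5, and 287 of the 24846 had a −log10 p-value of 5 or more.

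**Figure D1:**
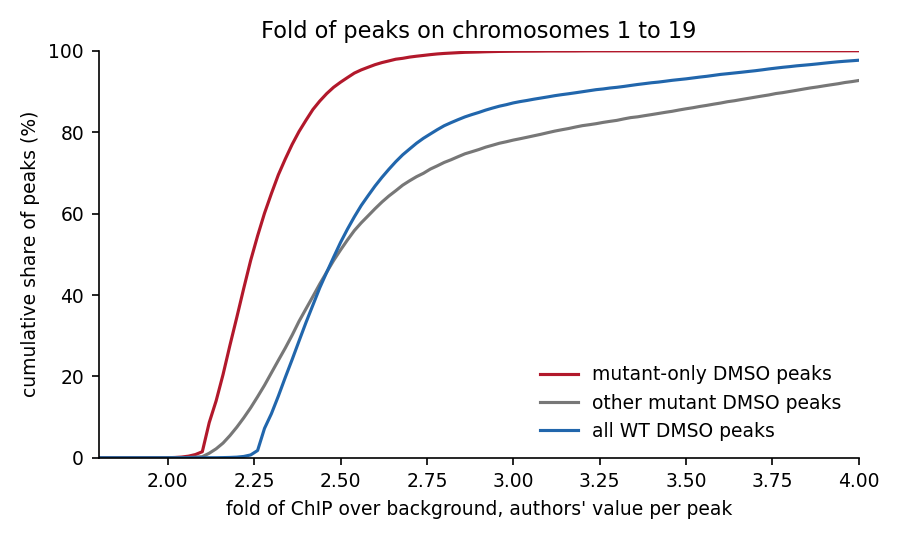
Cumulative share of peaks (%) against the authors' fold of ChIP over background, for mutant-only DMSO peaks, the other mutant DMSO peaks and all WT DMSO peaks on chromosomes 1 to 19. Mutant-only peaks have a median of 2.25, a fold at or below which 0.907% of WT DMSO peaks lie.

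The boundary of the set is sharp by definition only. The mutant-only peaks nearest to a WT DMSO peak touched it with 0 bases between them. They lay on chromosome 5 at 111754704 to 111755828 (fold 2.24), on chromosome 6 at 4575519 to 4575980 (2.6) and on chromosome 7 at 29293066 to 29293268 in Ppp1r14a (2.4). The mutant peaks just outside the set shared 1 base with a WT peak. They were on chromosome 3 at 83750127 to 83750464 (fold 2.16), on chromosome 3 at 87131925 to 87132393 in Kirrel (2.08) and on chromosome 12 at 87005264 to 87007677 (2.34).

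Counted singly, most mutant-only peaks lay within 5 kb of a WT DMSO peak. Most of the mutant-only regions left after merging over short gaps did not. The distance from a mutant-only peak to the nearest WT DMSO peak had a median of 4269.5 bp, with quartiles of 1594 and 13204 bp. Of the 24846 peaks, 54.0% (53.4 to 54.6%) lay within 5 kb of a WT peak, while 9.27% of the bases between WT peaks lay that near. On both sides 14.8% had a WT peak within 5 kb. How much of the gap between those WT peaks they covered was not measured. At the other end, 8.27% (7.93 to 8.62%) lay over 50 kb away and 3.84%, or 953 peaks, over 100 kb. WT-only peaks were nearer to mutant DMSO peaks, with a median distance of 1558 bp and 74.0% within 5 kb, in a mutant list that covered more bases. After peaks under 3 kb apart were merged within each list, 27.3% of 11469 mutant-only regions lay within 5 kb of a WT region and 15.3% over 50 kb away. Merging removes from the set any mutant-only peak whose merged region reaches a WT region. Of the 13413 mutant-only peaks within 5 kb, 9839 were linked to a WT peak through mutant peaks under 3 kb apart. The shares before and after merging therefore describe different sets.

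**Figure D2:**
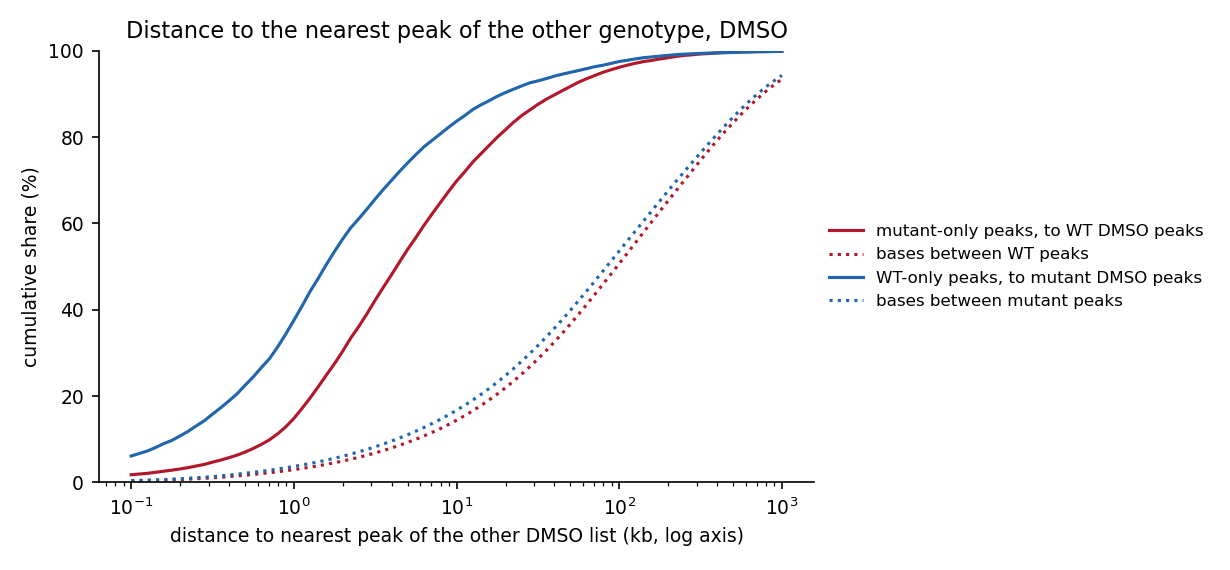
Cumulative share (%) of mutant-only and WT-only peaks by distance to the nearest DMSO peak of the other genotype (kb, log axis), with the same share for all bases between those peaks as dotted lines. Within 5 kb lie 54.0% of mutant-only peaks and 9.27% of the bases between WT peaks.

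Coverage by mutant-only peaks decreased with distance beyond the first kilobase. They covered 2.14% of bases up to 1 kb from a WT peak and 6.82% of bases 1 to 5 kb away. The rule itself limits coverage next to a WT peak, since a mutant peak that reaches the WT peak counts as shared. The value was 2.29% at 5 to 20 kb, 0.623% at 20 to 50 kb, 0.287% at 50 to 100 kb and 0.0617% beyond 100 kb. Width and fold varied less along this series: the median width was 731 bp within 1 kb and 571 bp beyond 100 kb, and the median folds were 2.26 and 2.24. Of the peaks beyond 100 kb, 25.1% overlapped a protein-coding gene, against 37.3% within 1 kb.

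**Figure D3:**
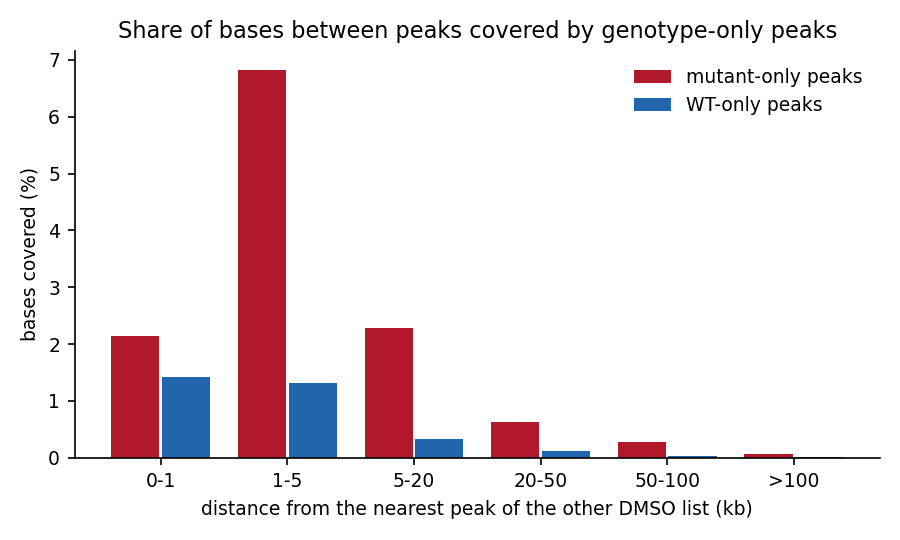
Share of bases (%) covered by mutant-only peaks, by distance from the nearest WT DMSO peak (kb), and by WT-only peaks, by distance from the nearest mutant DMSO peak. Mutant-only coverage is highest at 1 to 5 kb, at 6.82%, and is 0.0617% beyond 100 kb. Mutant peaks that reach a WT peak are not counted.

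The WT peaks nearest to mutant-only peaks were not mainly the wide ones. By the rule a mutant peak that reaches a WT peak is shared, so marked flanks joined to a wide WT peak are not counted here. How far the rule shapes the values below was not tested. The WT peak nearest to a mutant-only peak within 5 kb had a median width of 757 bp, against 936 bp for all WT DMSO peaks on these chromosomes. There were 0.413 mutant-only peaks within 5 kb per WT peak narrower than 1 kb, 0.278 per WT peak of 1 to 5 kb, 0.217 per WT peak of 5 to 20 kb and 0.129 per WT peak of 20 kb or more. Of these nearest WT peaks 65.3% were themselves overlapped by a mutant DMSO peak, against 79.5% of all WT DMSO peaks. When mutant DMSO peaks less than 3 kb apart were chained, 43.0% of mutant-only peaks (42.4 to 43.6%) belonged to a chain that overlapped a WT peak. The remaining 14171 formed 11509 chains without WT overlap, of which 82.2% were 1 peak alone and 461 held at least 3.

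Shared peaks held more of the mutant-specific bases than mutant-only peaks did. Mutant DMSO peaks covered 59.3 Mb outside WT DMSO peaks. Of this, 63.2% (37.5 Mb) lay in mutant peaks that overlap a WT peak and 36.8% (21.9 Mb) in mutant-only peaks. In the opposite direction 11 Mb of WT DMSO peaks lay outside mutant DMSO peaks, 46% of it in WT-only peaks.

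The widest and strongest mutant-only peak stood apart from the rest. It spanned 24.6 kb on chromosome 2 (180093754 to 180118312) over Hrh3, whose product is a histamine receptor of neurons, and over part of Osbpl2, an oxysterol-binding protein gene. Its fold was 4.05 and the nearest WT DMSO peak lay 70.1 kb away. GSK343 peaks nevertheless covered 52.2% of it in WT and 39.8% in mutant cells. The body of Hrh3 was covered by 0% in WT DMSO, 100.0% in mutant DMSO, 100.0% in WT GSK343 and 90.9% in mutant GSK343. The WT DMSO list is thus the only one of the 4 without a peak there. Between the WT DMSO peaks on either side, 2 consecutive peak numbers are absent from the WT DMSO list, whose file name says that blacklisted peaks were removed. Whether a removed peak lay over Hrh3 was not tested.

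Absent peak numbers touch few of the mutant-only peaks. Of the WT DMSO numbering, 1278 numbers (3.13%) are absent from the list used here, in 418 intervals between neighbouring peaks. Such an interval held 709 mutant-only peaks (2.85%), 4 of the 31 with a fold of at least 3, 192 of the 2055 over 50 kb from a WT peak (9.34%) and 3 of the 5 overlapped in both GSK343 lists. Those 3 are the peak at Hrh3, a 10.3 kb peak in Zfp385c (chromosome 11, 100669719 to 100680041, fold 3.21) and a 4.83 kb peak at Zfp660 (chromosome 9, 122898897 to 122903729, fold 3.1). Zfp385c and Zfp660 encode zinc finger proteins, and WT GSK343 peaks covered 17.4% and 10.4% of the peaks there. Without the 709 peaks, 54.8% lay within 5 kb of a WT peak, 7.72% over 50 kb and 0.302% were overlapped by a mutant GSK343 peak.

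The other 8 of the 10 widest peaks were weaker than those at Hrh3 and Zfp385c and were in neither GSK343 list. Among the 10 widest, 5 besides those at Hrh3 and Zfp385c lay 0.815 to 1.85 kb from a WT DMSO peak, with folds of 2.44 to 2.79: a 10.7 kb peak on chromosome 3 (137656523 to 137667193, nearest coding gene Ddit4l at 28.2 kb), one in Syt2, a synaptic vesicle protein gene (9.51 kb), one in Atp2c1, a Golgi calcium pump gene (8.67 kb), one near Cyb5r4 (8.54 kb) and one in Dock3 (7.88 kb). A 7.66 kb peak 4.72 kb from Pax4, a regulator of pancreatic islet cells, lay 1.27 kb from a WT peak at a fold of 2.39. The remaining pair, on chromosome 8 (4579146 to 4588205, 9.06 kb wide) and chromosome 3 (10066985 to 10075221, 8.24 kb), lay 8.59 and 17.0 kb from a WT peak.

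Strong peaks could also be short. On chromosome 14 a peak of 259 bp (48842065 to 48842323) reached 3.97-fold, and a mutant GSK343 peak covered 91.5% of it. Peaks of 890 bp in Antxr2 (chromosome 5, 98007471 to 98008360, fold 3.68) and of 678 bp in Vwa3a (chromosome 7, 120769981 to 120770658, fold 3.46) had no GSK343 overlap. In Mansc4 (chromosome 6, 147086505 to 147087378) a peak of 874 bp and fold 3.64 was covered to 20.1% by a mutant GSK343 peak. Among peaks with no WT DMSO peak within 100 kb, the 5 with the smallest p-values had folds of 3.09 to 3.23 and no GSK343 overlap. They included a peak of 512 bp in Glis3, a Krüppel-like zinc finger gene (chromosome 19, 28526495 to 28527006), and a peak of 2.97 kb on chromosome 4 (8485391 to 8488364), at 47.1 kb from Rab2a, a small GTPase gene of the secretory pathway. The farthest of the 5, on chromosome 1 near Fam174a, lay 1148 kb from a WT peak in an interval with 2 absent numbers.

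The fate of mutant-only peaks under GSK343 was addressed with the GSK343 lists, which the rule did not use. Of the 24846 peaks, 77 were overlapped by a mutant GSK343 peak, or 0.310% (0.248 to 0.387%), and 155 by a WT GSK343 peak, or 0.624% (0.533 to 0.730%). No GSK343 peak of either genotype overlapped 99.1% of them. The corresponding shares of shared mutant peaks were 25.7% (25.1 to 26.2%) and 30.2% (29.6 to 30.8%). WT-only peaks were nearer to mutant-only ones, with 0.496% (0.365 to 0.675%) overlapped by a mutant GSK343 peak and 1.17% (0.954 to 1.43%) by a WT one. Neither list overlapped 98.6% of WT-only peaks. By bases, mutant GSK343 peaks covered 0.172% of mutant-only and 14.9% of shared mutant peaks. The GSK343 lists begin at higher folds than the DMSO lists, so weak enrichment could not be scored in them. The lowest 5% of folds ended at 2.59 in the mutant GSK343 list and at 2.67 in the WT GSK343 list, and 0.0187% of mutant GSK343 peaks had a fold at or below 2.25. The part of this limit in the low overlap was not tested. Over all mutant-only peaks the share with a WT GSK343 peak was the higher. It was also the higher at a q-value of at most 0.01, with 1.23% against 1.03% for a mutant one. At a fold of at least 2.5 a mutant GSK343 peak overlapped 1.56% (1.10 to 2.22%) and a WT one 1.46% (1.01 to 2.10%). At a −log10 p-value of at least 5 the shares were 3.83% (2.15 to 6.73%) and 3.48% (1.90 to 6.29%). The intervals overlap at each of these thresholds on q, fold and p.

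The gap between mutant-only and shared peaks was smaller among peaks of like fold and width, and it did not close. Among peaks with a fold of 2.2 to 2.4 and a width of 1 to 2 kb, a mutant GSK343 peak overlapped 0.396% of 3030 mutant-only peaks (0.227 to 0.691%) and 1.17% of 2139 shared ones (0.793 to 1.72%). At a fold of 2.4 to 2.6 and a width of 2 to 5 kb the shares were 2.10% of 429 (1.11 to 3.94%) and 4.23% of 2411 (3.5 to 5.11%). At a fold of 2.6 to 3 and the same width they were 12.1% of 66 (6.27 to 22.1%) and 20.7% of 1494 (18.7 to 22.8%). For the classes just given, the intervals overlap at folds of 2.4 to 2.6 and 2.6 to 3, and not at 2.2 to 2.4. At a fold of 2.6 to 3 and a width of 1 to 2 kb the intervals did not overlap either. A mutant GSK343 peak overlapped 1 of 162 mutant-only (0.617%, 0.109 to 3.41%) and 47 of 580 shared peaks (8.10%, 6.15 to 10.6%) there. For peaks narrower than 5 kb the mutant-only share with a mutant GSK343 peak was the lower in every class of fold and width compared. The share with a WT GSK343 peak was the lower in all such classes but one: at a fold below 2.2 and a width of 2 to 5 kb it was 3.31% of 151 mutant-only (5 peaks) and 0 of 144 shared peaks. WT GSK343 peaks overlapped 3.03% (1.78 to 5.11%) of mutant-only and 11.2% (10.0 to 12.5%) of shared peaks at a fold of 2.4 to 2.6 and a width of 2 to 5 kb. Strength within the set ran the same way as in the shared peaks: a mutant GSK343 peak overlapped 6 of the 20 mutant-only peaks in the strongest p-value bin (30.0%, 14.5 to 51.9%) and 3 of the 4207 in the weakest (0.0713%, 0.0243 to 0.209%).

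**Figure D4:**
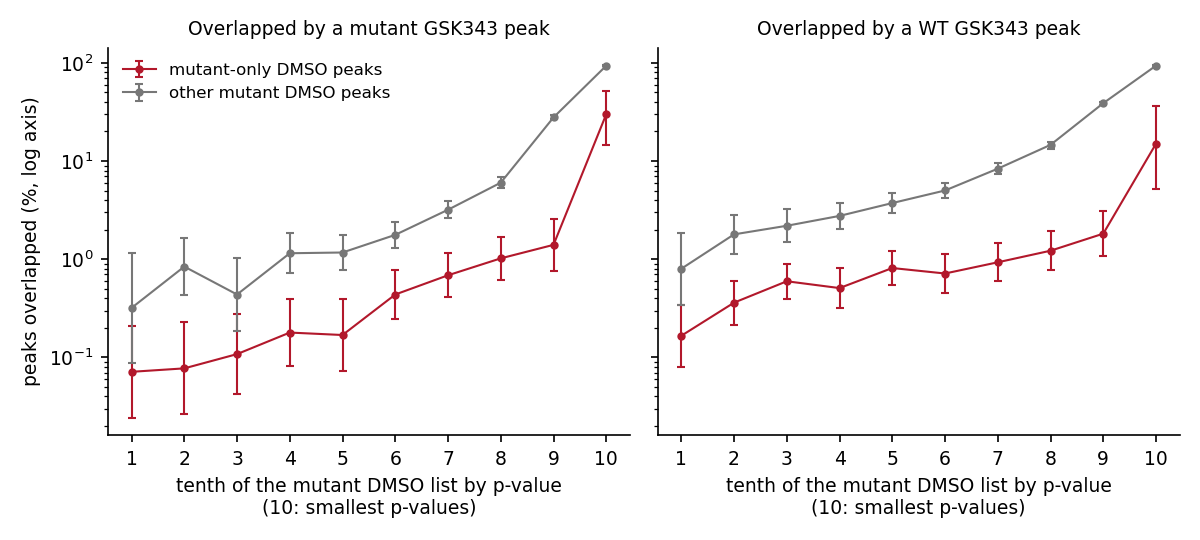
Share of mutant DMSO peaks (%, log axis) overlapped by a mutant GSK343 peak (left) or a WT GSK343 peak (right), by 10 equal bins of the list ranked by p-value, with 95% Wilson intervals as bars. Mutant-only peaks run from 0.0713% to 30.0% on the left and lie below the other mutant DMSO peaks in each bin.

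Overlap with GSK343 peaks was also counted by distance from the nearest WT DMSO peak. A mutant GSK343 peak overlapped 0.190% (0.0921 to 0.392%) of mutant-only peaks within 1 kb of a WT DMSO peak and 0.735% (0.356 to 1.51%) of those beyond 100 kb, with overlapping intervals. A WT GSK343 peak overlapped 1.17% (0.868 to 1.57%) of those within 1 kb, 0.450% to 0.643% in the bins between 1 and 100 kb, with no steady fall, and 1 of the 953 beyond 100 kb (0.105%, 0.0185 to 0.592%). The overlaps were short: a median of 279 bp was shared with a mutant GSK343 peak and 296 bp with a WT one.

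Mutant-only peaks added few genes to those already marked in WT cells. They overlapped 3387 of the 20665 protein-coding genes on chromosomes 1 to 19, or 16.4%, and 79.9% of these 3387 genes also carried a WT DMSO peak. The 680 genes with a mutant-only peak and no WT DMSO peak make up 3.29% of coding genes. Of these, 78.8% were touched by exactly 1 mutant-only peak and the median gene was covered to 3.94%. Long genes were overlapped more often: with coding genes in 4 equal classes by length, 4.32% of the shortest and 32.7% of the longest class held a mutant-only peak. The share with such a peak and no WT DMSO peak was 3.02% to 3.56% in each of the 4 classes. A mutant GSK343 peak overlapped 10 of the 680 genes (1.47%), against 63.8% of the genes with a WT DMSO peak. With a fold of at least 2.5 the 680 genes were 92.

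By bases under mutant-only peaks, neighbouring genes of 1 family led the genes without a WT DMSO peak. A2ml1 and Pzp, both protease inhibitors of the alpha-2-macroglobulin family on chromosome 6, held 7 and 5 such peaks. A2ml1 (128539822 to 128581606) was covered to 24.1% in mutant DMSO and 0% in the other 3 lists, and its peaks lay at least 66.0 kb from a WT peak, with folds up to 2.69. Pzp (128483567 to 128526720) was covered to 20.3% in mutant DMSO and 0% elsewhere. Lyg1, a lysozyme-like gene (chromosome 1, 37946738 to 37957759), reached 51.1%, with a WT peak 1.32 kb away. Trpv1, the heat- and capsaicin-gated channel of sensory neurons, reached 15.9%, Obp2b, an odorant-binding protein gene, 18%, Hykk, hydroxylysine kinase, 14.1%, Rmdn2 3.90% and Itpr2, an intracellular calcium release channel, 1.12%. Among these 8 genes and Hrh3, only Hrh3 had a GSK343 peak in either genotype.

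Gene groups were then read against the shares over all coding genes, 16.4% with a mutant-only peak and 3.29% with one and no WT DMSO peak. B cell identity and signalling genes had neither: 0 of 19 carried a mutant-only peak, and 0 of 19 a peak in any list. Among 20 developmental regulators 2 held a mutant-only peak (Gata4 and Wt1), and all 20 had a WT DMSO peak. The 39 Hox genes, 19 Polycomb complex genes and 7 cyclin-dependent kinase inhibitor genes held none. Long neuronal genes had more, with 9 of 20 channels and receptors (Cacna1c, Grm5 and Kcnq3 among them) and 7 of 20 axon guidance and adhesion genes, whose median lengths were 243 and 465 kb. All of these also had a WT DMSO peak, as did the 6 of 20 Wnt pathway genes and the 5 of 20 FGF, BMP, Hedgehog and Notch genes with a mutant-only peak. T and innate lymphoid genes held mutant-only peaks in 6 of 19 cases (Bcl11b, Cd4, Icos, Il7r, Runx3 and Tcf7), and myeloid, erythroid and stem cell genes in 5 of 19, and each of these genes also carried a WT DMSO peak. The bases under peaks at Cd4, the T helper co-receptor, were 39.5% of the gene in WT DMSO, 52.4% in mutant DMSO and 0% in both GSK343 lists.

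A few genes of innate immunity and of the germinal centre held a mutant-only peak and no WT DMSO peak. Those named here each held 1 mutant-only peak. Widths in bp below count the bases of that peak inside the gene. Among interferon-stimulated genes 3 of 18 held a mutant-only peak, and Irf7, a transcription factor of the interferon response, and Cxcl10, a chemokine, had no WT DMSO peak. Their mutant DMSO coverage was 19.1% (632 bp, fold 2.17) and 10.3% (232 bp, fold 2.12), with 0% in the other 3 lists. Among 18 nucleic acid sensors 4 held one, and Oas1a (632 bp, 5.60% of the gene, fold 2.59) and Tlr3, the endosomal receptor for double-stranded RNA (214 bp, 1.39%, fold 2.24), had no WT DMSO peak. Among 20 cytokine and interferon genes 3 held one, and Il4, the cytokine also added to the culture, had no WT DMSO peak and 1 mutant-only peak of fold 2.35 over 11.3% of the gene. In the plasma cell and germinal centre group 4 of 15 genes held one. Prdm1, the regulator of plasma cell differentiation, and Zbtb20 also had a WT DMSO peak, and Mybl1, a Myb family factor of germinal centre B cells (1.55%, fold 2.37), and Gcsam (1.29%, fold 2.2) had no WT DMSO peak. Of 20 imprinted genes 8 held one, with Snrpn (0.561%) and Ube3a (0.486%) lacking a WT DMSO peak. Of these 9 genes, 0 carried a GSK343 peak, and at 2 genes or fewer per group the counts are too small to be read against 3.29%. Of the genes named in the labels, Ifih1, Rigi (listed as Ddx58) and Ezh2 had no peak in any list. Cgas had no mutant-only peak and was covered to 88.7% in WT DMSO, 90.5% in mutant DMSO, 47.5% in WT GSK343 and 23.2% in mutant GSK343.

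Start sites of genes were seldom under mutant-only peaks. Within 1 kb of a RefSeq start site lay 4.12% of mutant-only peaks (3.88 to 4.37%), 4.33% of WT-only peaks and 21.7% of shared mutant peaks (21.2 to 22.3%). Of 16457 coding genes with a promoter window, 223 (1.36%) had one overlapped by a mutant-only peak. Gene bodies were overlapped by 37.4% of mutant-only, 37.9% of WT-only and 49.3% of shared mutant peaks. In the same order, 8.19%, 7.72% and 4.58% lay over 100 kb from a coding gene. Shared peaks were wider, with a median of 2778 bp against 680.0 bp, and wider peaks can reach more features. These shares were not matched for width.

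The promoters that mutant-only peaks did reach were poor in CG. The 472 promoter windows in a mutant-only peak held a median of 4.00 CG dinucleotides (quartiles 2.00 and 7.00), against 10.0 (5 and 20) for the 5739 windows in a WT DMSO peak and 5.00 (2 and 15) for the 24617 windows in no DMSO peak. At least 15 were found in 6.78%, 37.0% and 26.5% of windows in the same order. The search was for the letters CG, which read the same on both strands and occur in 92.4% of all windows. The median content of G and C was 50.4%, 58.8% and 51.2%. A group of 568 windows in shared mutant peaks that reach beyond the WT peak also had a median of 4.00. The Hrh3 window printed above, with 42, is thus unlike most promoters in mutant-only peaks, and those of Oas1a and Gcsam, with 3, are close to their median. Sequence was not used in choosing the peaks. Neighbouring windows can belong to the same gene, so these values describe the promoters and were not tested.

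**Figure D5:**
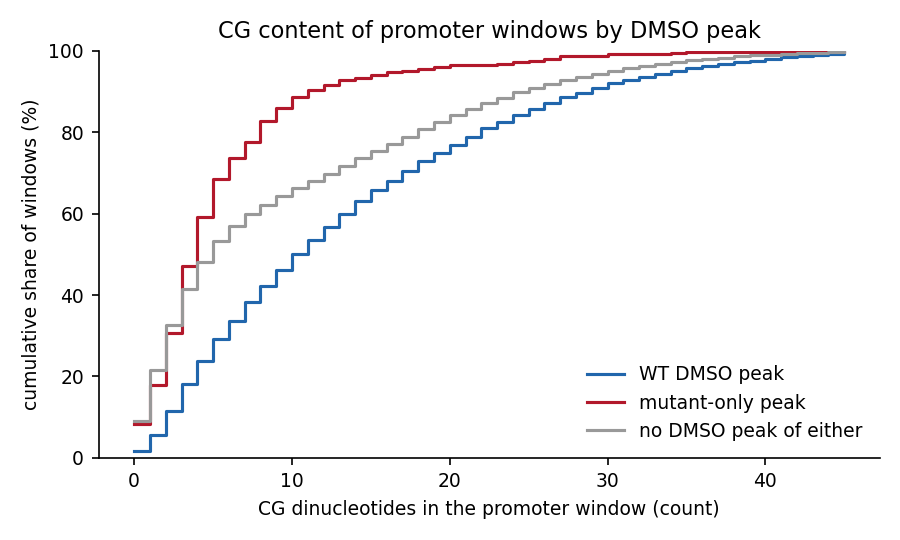
Cumulative share of promoter windows (%) by the number of CG dinucleotides in the 250 bases before the start site, for windows in a WT DMSO peak, in a mutant-only peak and in neither. The medians are 10.0, 4.00 and 5.00.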

How the data were processed

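Peak positions, the fold of ChIP over background (a linear ratio) and the −log10 p-value and −log10 q-value are as the authors deposited them, in 4 lists of broad peaks. Per the submitters' processing notes, Bowtie2 2.4.2, SAMtools 1.12, MACS2 2.2.7.1, bedtools 2.29.2 and deepTools 3.5.1 were used on build mm10; settings are not given in the sources used here. Peaks had been removed by a blacklist, per the file names, and the peak names refer to pooled duplicates. Lists were assigned to groups by the genotype and treatment initial in those names. Peaks of other chromosomes were left out. Overlap means at least 1 shared bp; distance counts the bases between nearest edges. Genes (49997 entries) and start sites came from RefSeq tables for GRCm38.p6, the same assembly as mm10; exons were not annotated. Positions count from 1. A WT DMSO peak number was called absent when the numbering of the list skipped it. Named peaks were the 10 widest, the 5 of highest fold overall and in each GSK343 class, the 5 of smallest p-value beyond 100 kb, and the 3 nearest either side of the overlap rule. Named genes were the 10 with most bases under mutant-only peaks and no WT DMSO peak, up to 4 such genes per list, and those in the labels; 1 of these genes is not reported here. Members and lists were chosen with earlier results of these data known. Of the gene lists, 2 interferon-stimulated genes could not be matched, and genes on chromosome X were left out. Computation used matplotlib 3.10.9, scipy 1.17.1, pandas 2.3.3 and numpy 2.4.6 in Python 3.11.15. Overlaps and distances were the same as from bedtools 2.31.1 for 12 of 12 pairs of lists, and the code was tested on simulated data. Alternatives covered thresholds on q, p, fold and width, the overlap and distance rules, merging, list size and absent peak numbers.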

Additional observations from a re-analysis of the deposited data

Results flagged for a closer look

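Chromosome X lay outside the comparison, and the mutant list held far more peaks without a WT counterpart there than the WT list held without a mutant one. Of 1446 mutant DMSO peaks on chromosome X, 1271 had no WT DMSO overlap, or 87.9% (95% Wilson interval 86.1 to 89.5%), against 46% on chromosome 17 to 56.8% on chromosome 14 among the autosomes. Of 230 WT DMSO peaks on chromosome X, 20 had no mutant overlap. The sample titles do not give the sex of the mice, and the part of sex in this difference was not tested.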

How the results depend on the processing

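The peaks and genes counted depend mostly on the strength asked of a peak, while the genic share of the mutant-only peaks stayed between 36.8% and 42.2% under the 9 alternative settings. Of these settings 8 were planned and 1, on absent peak numbers, was chosen after seeing the data. For 11 results they yielded 98 values, of which 31 lay inside the 95% interval of the reported value, or within 1.5 times it for counts, and 67 moved further; the cause was not tested except where a filter itself lowers a count. The joined share could not be computed after merging, since joined peaks are then 1 peak. No paired analysis was possible because a group is represented by a single pooled list. For want of replicate values, no replicate could be left out either. The moved values follow, each for the mutant-only peaks that the setting leaves. A q-value of at most 0.01 gave 4380 peaks, a median width of 778 bp, a median fold of 2.48, 58.9% within 5 kb, 7.72% over 50 kb, 50% joined, 1.03% in mutant GSK343 peaks, 1.23% in WT GSK343 peaks, 38% genic, 1189 genes overlapped and 184 genes without a WT DMSO peak. A fold of at least 2.5 gave 1921 peaks, a median fold of 2.58, 57.4% within 5 kb, 9.37% over 50 kb, 49.3% joined, 1.56% in mutant GSK343 peaks, 1.46% in WT GSK343 peaks, 622 genes overlapped and 92 genes without a WT DMSO peak. A −log10 p-value of at least 5 gave 287 peaks, a median width of 577 bp, a median fold of 2.82, 56.4% within 5 kb, 12.9% over 50 kb, 51.2% joined, 3.83% in mutant GSK343 peaks, 3.48% in WT GSK343 peaks, 42.2% genic, 117 genes overlapped and 26 genes without a WT DMSO peak. Peaks of at least 1 kb gave 7115 peaks, a median width of 1493 bp, a median fold of 2.29, 59.6% within 5 kb, 6.51% over 50 kb, 49.0% joined, 0.717% in mutant GSK343 peaks, 1.38% in WT GSK343 peaks, 1608 genes overlapped and 244 genes without a WT DMSO peak. Admitting peaks with under 50% of their bases in WT DMSO peaks gave a median width of 870.0 bp, a median fold of 2.28, 66.7% within 5 kb, 5.98% over 50 kb, 58.8% joined, 1.66% in mutant GSK343 peaks and 2.73% in WT GSK343 peaks. Merging peaks under 3 kb apart gave 11469 peaks, a median width of 768 bp, 27.3% within 5 kb, 15.3% over 50 kb and 0.410% in mutant GSK343 peaks. The 39233 top peaks of each DMSO list gave a median width of 750.0 bp, a median fold of 2.30, 56.3% within 5 kb, 41.0% joined, 0.413% in mutant GSK343 peaks and 0.785% in WT GSK343 peaks. Leaving out peaks within 1 kb of a WT DMSO peak gave a median fold of 2.24, 46% within 5 kb, 9.71% over 50 kb, 37.0% joined and 0.529% in WT GSK343 peaks. Leaving out peaks in intervals with an absent WT peak number, the setting added after seeing the data, gave 54.8% within 5 kb, 7.72% over 50 kb and 43.6% joined.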

Other observations

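Families defined by gene symbol were counted in the same way as the gene groups above, beside 16.4% of all coding genes with a mutant-only peak and 3.29% with one and no WT DMSO peak. Olfactory receptor genes, which are short single-exon genes expressed in the nose, held a mutant-only peak in 43 of 1104 cases (3.89%) and had no WT DMSO peak in 34 of these 43. Keratin genes, counted together with keratin-associated protein (Krtap) genes, held one in 15 of 112 cases (13.4%). Of these 15, 9 had no WT DMSO peak, among them Krt15, Krt23, Krt75 and Krtap4-2. Cytochrome P450 genes held one in 16 of 101 cases (15.8%), with Cyp27a1, Cyp2e1 and Cyp4b1 among 6 without a WT DMSO peak. Vomeronasal receptor genes held one in 8 of 354 cases, zinc finger (Zfp) genes in 36 of 391 and solute carrier genes in 95 of 376, with 3, 10 and 11 lacking a WT DMSO peak. Cadherin genes held one in 11 of 28 cases, each with a WT DMSO peak. Collagen genes and other symbols starting with Col held one in 26 of 49 cases (53.1%) and potassium channel genes in 38 of 92 (41.3%), and all but 2 and 4 of these also had a WT DMSO peak. Median gene lengths were 0.95 kb for olfactory receptors, 1.77 kb for the keratin and Krtap genes, 21.6 kb for cytochrome P450 genes, 106 kb for the collagen group and 34.5 kb for potassium channels.

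Mutant-only peaks held 11 of 919 miRNA hairpins (1.20%), and WT DMSO peaks 102 (11.1%). The 11 include Mir208a, encoded within a cardiac myosin gene, and Mir211, which lies in a melanocyte channel gene.

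Chains of mutant DMSO peaks under 3 kb apart without WT overlap, a grouping chosen after the values were seen, showed the longest runs of mutant-only chromatin. After the peak at Hrh3, the most bases lay in 5 peaks on chromosome 3 (137649315 to 137668701, 13.3 kb, 0.154 kb from a WT peak) and in 3 peaks on chromosome 7 (3851203 to 3866652, 12.1 kb, 17.6 kb from a WT peak and 6.10 kb from Pira2, an immunoglobulin-like receptor gene). A chain of 4 peaks in A2ml1 (10.4 kb) and one of 4 peaks on chromosome 4 (7864031 to 7879463, 10.4 kb) lay 90.2 and 117 kb from a WT peak. Of the 461 chains of at least 3 peaks, 4 held a mutant GSK343 peak.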
